A study of Homo sapiens with 6 samples.

Results

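The genes described here are 36 members of the Hippo pathway, 23 pathway components and 13 reported YAP/TEAD targets, found by Entrez identifier among the 18030 genes of the deposited tables. All 36 were measured and all 36 passed the filter on low counts. The list was drawn up with gene counts of both groups known, so the values of the members are a description, and the number of members that passed supports nothing beyond itself. The Hippo pathway restrains growth by keeping a pair of transcriptional coactivators, YAP1 and WWTR1 (also called TAZ), out of the nucleus. A chain of kinases, STK3 and STK4 acting on LATS1 and LATS2, phosphorylates both coactivators, and unphosphorylated YAP1 and WWTR1 bind the TEAD transcription factors and switch on genes such as CCN1, CCN2 and ANKRD1. In liver the pathway is known for limiting organ size, and active YAP1 is common in hepatocellular carcinoma. The values below are mRNA levels, and neither protein nor phosphorylation was measured.

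All RNA came from Huh-7, an established line derived from a human liver cancer, with 3 libraries in each of 2 groups. The oeALKBH5 group is labelled as ALKBH5 overexpression: cells received an ALKBH5 plasmid by electroporation (1250 V, 20 ms, 3 pulses) and were harvested after 60 h. ALKBH5 is an RNA demethylase that acts on N6-methyladenosine. The control group is labelled WT and the series design calls it parental, yet it carries the same transfection text, so whether controls were electroporated or got an empty plasmid is not stated. Both groups carry the treatment label Untreated. The libraries are labelled as biological replicates, with nothing on separate cultures or transfections, so the spread between them may be technical. The promoter of the plasmid and the share of cells that took it up are not given, and all libraries come from 1 cell line.

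ALKBH5 mRNA was at 169, 133 and 110.4 CPM (sequencing counts scaled to library size, TMM-adjusted) in oeALKBH5 replicates 1, 2 and 3, against 70.6, 74.2 and 75.5 CPM in controls. It was 1.87-fold higher, with no overlap between the groups, and did not pass without control replicate 2 or 3. Estimated counts summed to between 18607084 and 18826479 per oeALKBH5 library, against 19265686 to 19378030 per control library. All 10 hepatocyte and hepatocellular carcinoma markers, ALB and AFP among them, were above 1 FPKM and passed as lower in oeALKBH5 (FPKM is a level scaled for both transcript length and depth), and together they held 11400 to 12000 FPKM in oeALKBH5 and 16000 to 16200 FPKM in controls. APOB, HNF4A and KRT18 did not pass with library size alone in place of TMM scaling. APOB, HNF4A, KRT8 and KRT18 did not pass on FPKM. The calls of HNF4A and KRT18 held in 2 of the 6 fits with 1 library left out. Summed markers of stellate cells and fibroblasts stood at 6.17 to 6.40 FPKM in oeALKBH5 and 4.82 to 5.18 FPKM in controls, with COL1A1 and COL1A2 higher, LUM lower and DCN averaging 0.0033 FPKM in oeALKBH5 and 0.043 FPKM in controls. Endothelial markers summed to 3.02 to 3.26 FPKM in oeALKBH5 and 4.58 to 5.47 FPKM in controls, nearly all of it PECAM1, which passed as lower. VWF, CDH5 and KDR did not pass the filter on low counts. Leukocyte markers, nearly all of it CD68, summed to 85.8 to 101 FPKM in oeALKBH5 and 85.9 to 87.5 FPKM in controls. Cholangiocyte markers summed to 92.5 to 109 FPKM in oeALKBH5 and 117 to 119 FPKM in controls: KRT19 passed as lower (65.8 FPKM in oeALKBH5, 92.8 FPKM in controls), SOX9 passed as higher (30.6 FPKM in oeALKBH5, 23.5 FPKM in controls) and KRT7 did not pass (2.36 FPKM in oeALKBH5, 1.45 FPKM in controls). The part of these differences in the results below was not tested. In bulk RNA, fewer cells of a kind and less RNA per cell cannot be told apart.

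More of the targets than of the pathway genes rose, by share and by median, a description with no test. Of the 13 targets, 8 rose and 0 fell, with a median log2 fold change of 0.50, oeALKBH5 over control. Of the 23 pathway genes, 11 rose and 1, the kinase gene STK3, fell, with a median of 0.17. Among all 14168 genes tested, 20.8% passed and were higher, 22.0% passed and were lower, and the median was 0.0062. Passing means an edgeR quasi-likelihood p below 0.05 after adjustment over all tested genes; 42.8% passed in either direction. With library size alone in place of TMM scaling, 4266 genes passed higher and 2047 lower, in place of 2948 and 3114, with an all-gene median of 0.085. The count of targets that rose was 5 without control replicate 3, and the single fall did not pass without control replicate 2. In TMM-adjusted CPM every oeALKBH5 library lay above every control library for 20 members and below for 3, beside 25.8% and 27.0% of all genes tested. Most changes were small: FSTL1 alone of the members more than doubled, and among passing pathway genes the log2 fold changes ran from -0.30 to 0.41.

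**Figure D1:**
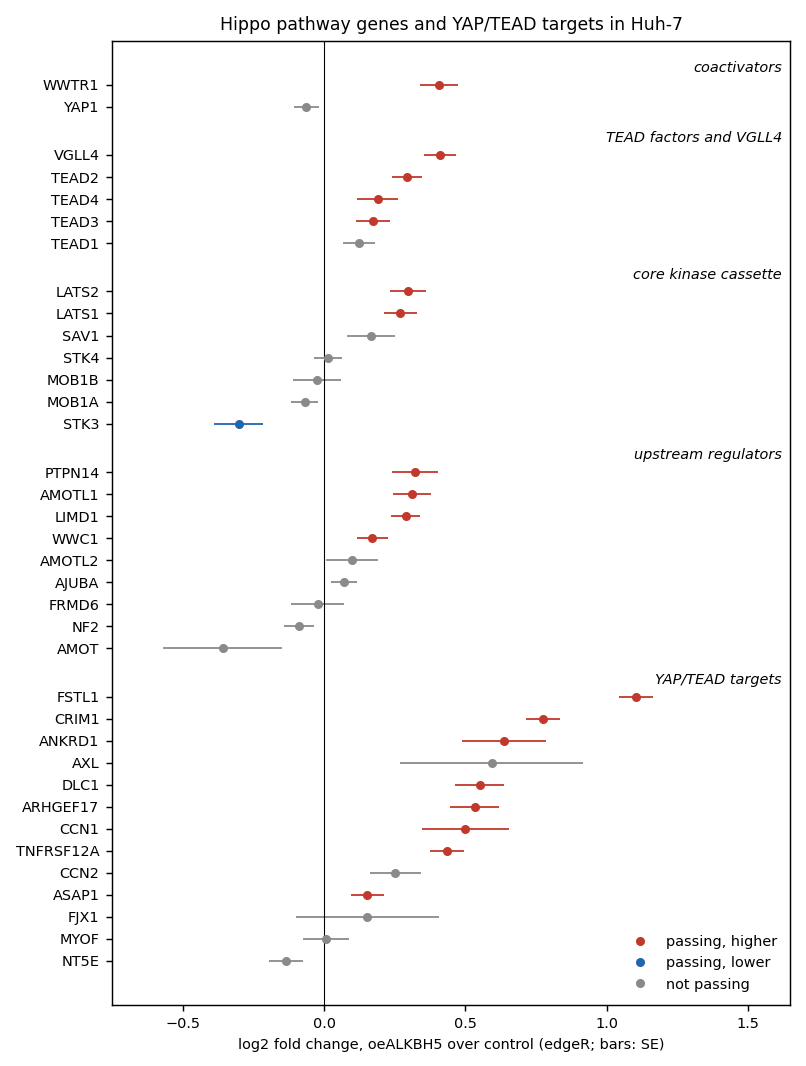
Log2 fold change of each member, oeALKBH5 over control, from edgeR (x axis), with genes on the y axis grouped by role and ordered by value within a group. Points are fold changes from 3 libraries in each group, bars are standard errors, and colours mark genes that passed higher (red), passed lower (blue) or did not pass (grey); FSTL1 lies furthest right at 1.10 and STK3 is the blue point at -0.30.

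Of the coactivator genes, WWTR1 rose and YAP1 did not pass. WWTR1 was at 74.3, 64.6 and 60.8 CPM in oeALKBH5 libraries and 49.1, 52.6 and 49.2 CPM in controls, a rise of 1.32-fold with a log2 fold change of 0.41 (SE 0.0666). YAP1 was at 147, 143 and 146 CPM in oeALKBH5 and 152, 153 and 151 CPM in controls, a log2 fold change of -0.063 (SE 0.0442) that did not pass. The WWTR1 libraries separated fully. Those of YAP1 separated too, with oeALKBH5 lower, but by so little that the sign depended on scaling: with library size alone the log2 fold change was 0.016, and in FPKM the level was 29.01 ± 0.641 in oeALKBH5 and 28.96 ± 0.611 in control cells (SD, n = 3 each). YAP1 remained the more abundant of the pair. The ratio of WWTR1 to YAP1, a value that no scaling between libraries can move, was 0.525, 0.454 and 0.439 in oeALKBH5 libraries and 0.336, 0.349 and 0.330 in controls on the FPKM scale, again without overlap. In the GENCODE release 29 annotation of GRCh38, YAP1 lies on chromosome 11 from 102110461 to 102233423 on the plus strand, and WWTR1 on chromosome 3 from 149517235 to 149736714 on the minus strand.

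The TEAD genes encode the DNA-binding partners of both coactivators, and 3 of the 4 rose, beside 20.8% of all genes tested. TEAD2 was at 75.1, 70.7 and 70.0 CPM in oeALKBH5 and 57.2, 60.9 and 58.0 CPM in control libraries, a log2 fold change of 0.29 (SE 0.0527). TEAD3 was at 59.9, 58.5 and 56.0 CPM in oeALKBH5 and 55.4, 51.2 and 48.2 CPM in controls (log2 fold change 0.17, SE 0.0587), and TEAD4 at 25.7, 22.5 and 25.3 CPM in oeALKBH5 and 22.2, 20.8 and 21.5 CPM in controls (log2 fold change 0.19, SE 0.0732). In each of these 3 genes the lowest oeALKBH5 library lay above the highest control, in TEAD3 and TEAD4 by under 1 CPM. TEAD1 was at 96.8, 89.2 and 83.2 CPM in oeALKBH5 and 81.6, 83.3 and 82.3 CPM in controls, and its lowest oeALKBH5 library fell inside the control range, with a log2 fold change of 0.12 (SE 0.0551) that did not pass. The call of TEAD2 held in every alternative. TEAD3 did not pass without oeALKBH5 replicate 2 (log2 fold change 0.17) or control replicate 2 (0.17) or 3 (0.12). TEAD4 passed without oeALKBH5 replicate 2 but not without replicate 1 (0.15) or 3 (0.17), nor without control replicate 1 (0.21), 2 (0.16) or 3 (0.19), nor by DESeq2 (0.19), limma-voom (0.19) or with no filter (0.18). TEAD1 did pass without oeALKBH5 replicate 3 (0.18) and with library size alone (0.20).

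Per length, TEAD2 was the most abundant TEAD mRNA in these cells. It held 45.1, 44.7 and 45.4 percent of the summed TEAD FPKM in oeALKBH5 libraries and 40.8, 43.0 and 42.5 percent in controls. TEAD1 held 12.1, 11.9 and 11.2 percent in oeALKBH5 and 12.4, 12.7 and 12.9 percent in controls. The share of TEAD2 was higher and that of TEAD1 lower in every oeALKBH5 library than in every control, by a few percentage points at most, while the shares of TEAD3 and TEAD4 overlapped. The 4 genes summed to 87.9, 83.2 and 81.0 FPKM in oeALKBH5 and 68.1, 68.4 and 66.4 FPKM in control libraries.

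VGLL4, which competes with YAP1 and WWTR1 for TEAD binding and acts as a repressive cofactor, had the largest log2 fold change of the 23 pathway genes, almost equal to that of WWTR1. It was at 57.3, 54.0 and 59.3 CPM in oeALKBH5 and 40.8, 43.9 and 43.6 CPM in control libraries, 1.33-fold higher (log2 fold change 0.41, SE 0.0574), a call that held in every alternative. On the FPKM scale the ratio of VGLL4 to YAP1 was 0.554, 0.522 and 0.587 in oeALKBH5 and 0.384, 0.399 and 0.403 in controls. Both a coactivator gene and the gene of its competitor were thus higher in the same libraries.

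**Figure D2:**
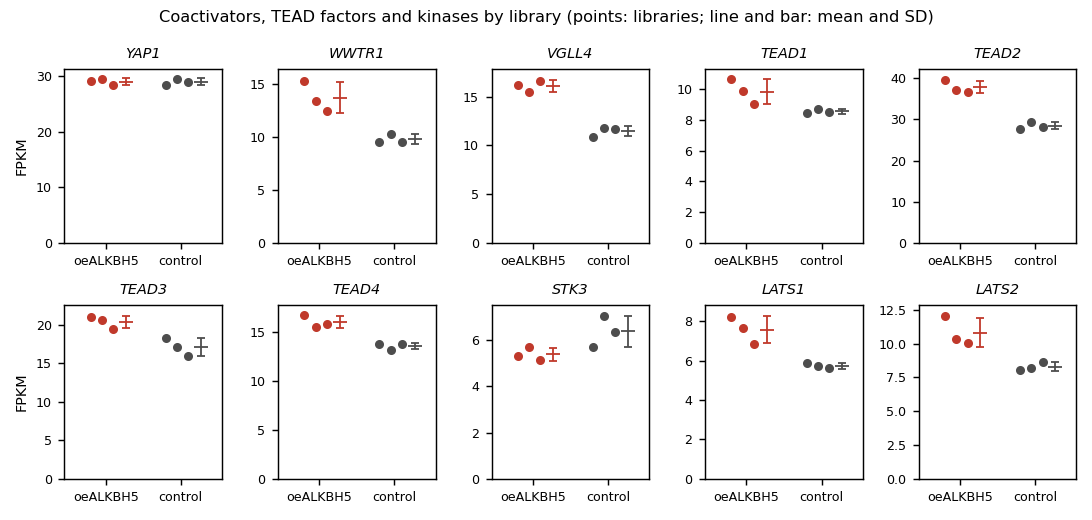
FPKM of 10 pathway genes by library (y axis, from 0), oeALKBH5 on the left and control on the right of each panel. Points are libraries, and the line with its bar is the mean and SD of 3; YAP1 sits at a similar FPKM in both groups while WWTR1, VGLL4 and TEAD2 lie higher in all 3 oeALKBH5 libraries and STK3 lower in mean.

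In the kinase cassette, both LATS genes rose, STK3 fell and the other 4 genes did not pass. Of its 7 genes 28.6% were higher and 14.3% lower, beside 20.8% and 22.0% of all genes tested. The median log2 fold change of the cassette was 0.013. LATS1 and LATS2 encode the kinases that phosphorylate YAP1 and WWTR1. LATS1 was at 50.3, 52.0 and 45.8 CPM in oeALKBH5 and 40.9, 41.3 and 40.6 CPM in controls (log2 fold change 0.27, SE 0.0592). LATS2, itself a reported YAP/TEAD target, was at 62.7, 53.9 and 53.1 CPM in oeALKBH5 and 44.7, 45.6 and 47.9 CPM in controls (log2 fold change 0.30, SE 0.0642). Neither gene's groups overlapped, and both calls held in every alternative. The ratio of LATS2 to LATS1 FPKM did overlap between groups, at 1.46, 1.35 and 1.46 in oeALKBH5 and 1.36, 1.43 and 1.54 in controls.

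STK3 and STK4 (MST2 and MST1) encode the kinases upstream of LATS. STK3 was at 14.7, 15.6 and 14.3 CPM in oeALKBH5 and 16.3, 20.3 and 18.3 CPM in control libraries, 1.23-fold lower, with a log2 fold change of -0.30 (SE 0.0870). Its groups did not overlap, but the controls were spread, and without control replicate 2, the highest of them, the value was -0.22 and did not pass. STK4 did not pass, with 84.2 ± 0.640 CPM in oeALKBH5 and 83.4 ± 3.53 CPM in controls (SD, n = 3 each) and a log2 fold change of 0.013 (SE 0.0498). The ratio of STK3 to STK4 FPKM was 0.390, 0.418 and 0.370 in oeALKBH5 and 0.463, 0.537 and 0.484 in controls, lower in every oeALKBH5 library. The adaptor genes did not pass: SAV1, the scaffold of STK3 and STK4, was at 0.17 (SE 0.0851), and MOB1A and MOB1B, which activate the LATS kinases, at -0.069 (SE 0.0472) and -0.026 (SE 0.0841). SAV1 lay above the control range in every oeALKBH5 library (14.1, 13.4 and 13.7 CPM in oeALKBH5, 12.3, 12.8 and 11.6 CPM in controls) and passed with library size alone (0.25).

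Upstream regulators feed junction, polarity and cytoskeletal signals into the cassette, and 4 of 9 (44.4%) rose, beside 20.8% of all genes tested. PTPN14, a phosphatase that binds YAP1 and holds it in the cytoplasm, was at 25.0, 23.2 and 20.5 CPM in oeALKBH5 and 18.4, 19.2 and 17.3 CPM in controls (log2 fold change 0.32, SE 0.0812). AMOTL1, an angiomotin family scaffold that binds YAP1 at junctions, was at 27.6, 29.2 and 27.2 CPM in oeALKBH5 and 22.6, 21.5 and 23.7 CPM in controls (log2 fold change 0.31, SE 0.0685). LIMD1, a LIM protein that binds and inhibits LATS, was at 136, 133 and 124 CPM in oeALKBH5 and 104, 105 and 113 CPM in controls (log2 fold change 0.29, SE 0.0511). The libraries of these 3 genes did not overlap and their calls held in every alternative. WWC1, or KIBRA, which promotes LATS phosphorylation, was at 119, 105 and 103 CPM in oeALKBH5 and 98.0, 96.5 and 95.8 CPM in controls (log2 fold change 0.17, SE 0.0550). Its rise was largest in oeALKBH5 replicate 1: without that library the value was 0.10 and did not pass, and it did not pass without control replicate 2 (0.17) or 3 (0.16) either.

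The other 5 regulators did not pass. AMOTL2, the most abundant angiomotin gene and itself a reported YAP/TEAD target, was at 252, 201 and 193 CPM in oeALKBH5 and 207, 198 and 198 CPM in controls. Replicate 1 stood above and replicate 3 below all controls there, and the log2 fold change of 0.10 (SE 0.0921) turned to -0.029 without replicate 1. AJUBA, a LIM protein related to LIMD1 and the most abundant of the 23 pathway mRNAs in FPKM, was at 0.071 (SE 0.0458) and passed with library size alone (0.15). NF2, which encodes merlin, was at -0.089 (SE 0.0529), with all 3 oeALKBH5 libraries slightly below the controls (47.4, 48.9 and 48.2 CPM in oeALKBH5, 50.5, 51.8 and 51.3 CPM in controls). That separation depended on scaling. With library size alone NF2 was at -0.0095, and in FPKM its groups overlapped (9.43 ± 0.734 in oeALKBH5, 9.34 ± 0.827 in controls, SD, n = 3 each). FRMD6, a FERM domain protein related to fly Expanded, was at -0.023 (SE 0.0944). AMOT was the least abundant member in FPKM, at 30 to 49 counts a library, and its log2 fold change of -0.36 (SE 0.211) came with the third widest error of the 36, after those of AXL and FJX1.

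The largest fold changes among passing members were in targets. FSTL1, a secreted glycoprotein, was at 68.5, 64.7 and 61.9 CPM in oeALKBH5 and 30.4, 28.7 and 31.7 CPM in control libraries, 2.15-fold higher with a log2 fold change of 1.10 (SE 0.0605). CRIM1, a membrane protein that binds bone morphogenetic proteins, was at 127, 118 and 107 CPM in oeALKBH5 and 70.2, 66.5 and 69.1 CPM in controls, 1.71-fold higher (log2 fold change 0.77, SE 0.0586). In both genes the gap between the groups was wider than the range within either, and leaving out any library kept FSTL1 at 1.07 or more and CRIM1 at 0.72 or more. On GRCh38 (GENCODE release 29) FSTL1 lies on chromosome 3 from 120392293 to 120451253 on the minus strand, and CRIM1 on chromosome 2 from 36355926 to 36551135 on the plus strand.

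Among the classical targets ANKRD1 and CCN1 rose, with a wider spread between oeALKBH5 libraries, and CCN2 did not pass. ANKRD1, an ankyrin repeat protein of muscle and stress responses, was at 55.6, 41.9 and 37.6 CPM in oeALKBH5 and 27.9, 29.3 and 29.7 CPM in controls, 1.56-fold higher (log2 fold change 0.64, SE 0.149). CCN1, a matricellular protein that binds integrins, was at 93.8, 74.7 and 64.1 CPM in oeALKBH5 and 56.1, 57.4 and 51.0 CPM in controls (log2 fold change 0.50, SE 0.153). CCN2, its relative known as connective tissue growth factor, was at 344, 278 and 263 CPM in oeALKBH5 and 252, 244 and 246 CPM in controls (log2 fold change 0.25, SE 0.0906) and did not pass. In all 3 genes every oeALKBH5 library lay above every control and replicate 1 stood well above the other oeALKBH5 libraries. Without replicate 1 the values were 0.46 for ANKRD1, 0.34 for CCN1 and 0.13 for CCN2, and all 3 genes passed. ANKRD1 did not pass without control replicate 3 (0.66). CCN1 did not pass without oeALKBH5 replicate 2 (0.53), without control replicate 1 (0.51), 2 (0.53) or 3 (0.45), with DESeq2 size factors (0.50) or with no filter (0.49). CCN2 passed also without oeALKBH5 replicate 2 (0.30) or 3 (0.33), by limma-voom (0.24), with library size alone (0.33) and among genes with a mean count of at least 50 (0.26). In FPKM CCN2 was the most abundant target, at 132 ± 19.8 in oeALKBH5 and 105 ± 1.14 in control cells (SD, n = 3 each).

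A further 3 targets, all in signalling, rose. DLC1, a GTPase-activating protein and tumour suppressor, was at 112, 94.1 and 84.1 CPM in oeALKBH5 and 64.3, 66.7 and 66.8 CPM in controls (log2 fold change 0.55, SE 0.0870). ARHGEF17, a guanine nucleotide exchange factor, was at 71.9, 61.1 and 56.1 CPM in oeALKBH5 and 46.4, 44.5 and 40.0 CPM in controls (log2 fold change 0.53, SE 0.0858). Every oeALKBH5 library exceeded every control in both genes, and replicate 1 was the highest. TNFRSF12A, the receptor of the cytokine TWEAK, was at 68.4, 59.8 and 64.3 CPM in oeALKBH5 and 48.9, 45.0 and 48.6 CPM in controls (log2 fold change 0.44, SE 0.0595). The groups of these 3 genes did not overlap, and the 3 calls held in every alternative.

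ASAP1, a GTPase-activating protein for Arf, was at 77.3, 74.8 and 66.6 CPM in oeALKBH5 and 67.9, 65.7 and 63.2 CPM in controls, and passed at 0.15 (SE 0.0584) although its lowest oeALKBH5 library lay inside the control range. Its call was the least stable of the targets that passed: without oeALKBH5 replicate 3 it passed, but not without oeALKBH5 replicate 1 (0.11) or 2 (0.14) or control replicate 1 (0.18), 2 (0.15) or 3 (0.13), nor by DESeq2 (0.16) or limma-voom (0.15).

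A further 4 targets besides CCN2 did not pass. NT5E, the ectonucleotidase that makes adenosine, was at 47.6, 52.6 and 54.4 CPM in oeALKBH5 and 58.8, 53.1 and 57.9 CPM in controls, with a log2 fold change of -0.14 (SE 0.0608), the one negative value among the 13. It passed as lower without oeALKBH5 replicate 3 (-0.17) or control replicate 2 (-0.18). MYOF, a membrane repair protein, was at 61.9, 49.7 and 47.9 CPM in oeALKBH5 and 51.4, 54.1 and 53.2 CPM in controls (log2 fold change 0.0058, SE 0.0813), with replicate 1 above and the other oeALKBH5 libraries below all controls. The receptor tyrosine kinase gene AXL and the secreted protein gene FJX1 had few counts, 30 to 101 a library for AXL and 21 to 37 for FJX1. AXL was at 2.60, 5.24 and 4.28 CPM in oeALKBH5 and 2.79, 3.64 and 1.59 CPM in controls (log2 fold change 0.59, SE 0.323) and passed without oeALKBH5 replicate 1 (0.83) or control replicate 2 (0.88). FJX1 was at 0.15 (SE 0.253), and the groups of both genes overlapped.

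**Figure D3:**
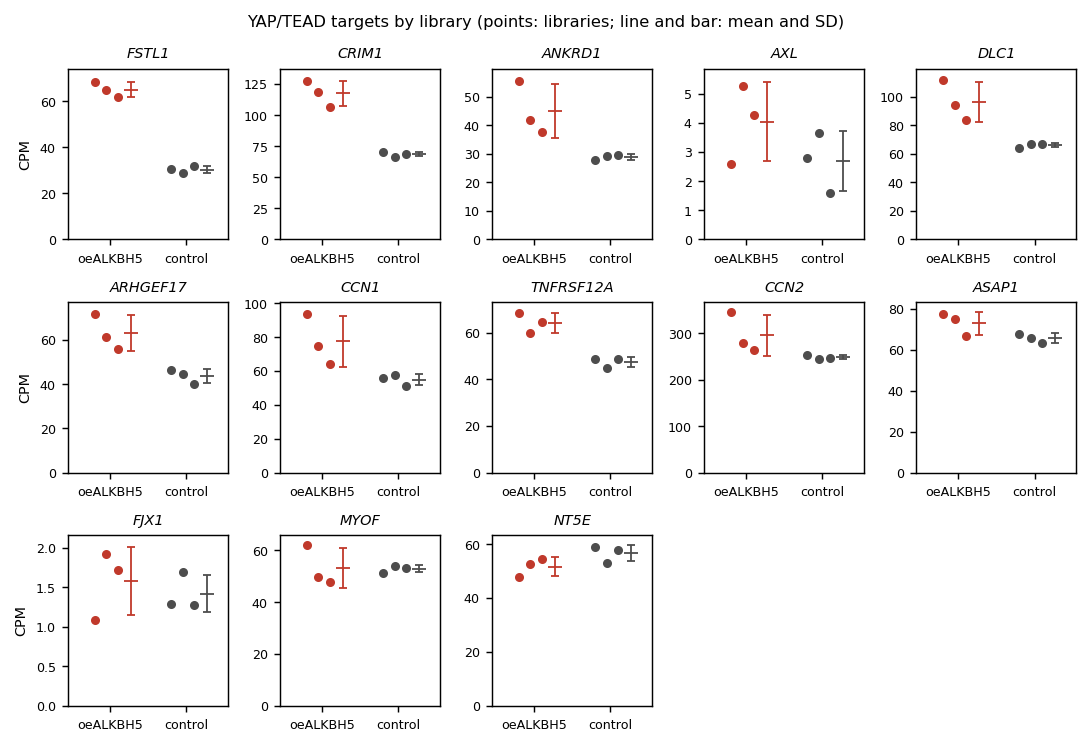
CPM of the 13 YAP/TEAD targets by library (y axis, from 0), ordered by log2 fold change, with oeALKBH5 left and control right in each panel. Points are libraries in replicate order and the line with its bar is the mean and SD of 3; FSTL1 and CRIM1 separate by more than the range within either group, while in ANKRD1, CCN1, CCN2 and DLC1 oeALKBH5 replicate 1 lies highest.

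TEAD factors bind the core GGAATG, and promoters of classical targets are shown with that core marked. RefSeq promoter windows (GRCh38.p14), each from 250 bases before to 50 bases after a transcript start, were matched for 26 of the 36 members. The other 10 were TEAD1, TEAD4, STK3, LIMD1, CCN1, CRIM1, DLC1, ARHGEF17, ASAP1 and TNFRSF12A. The windows were searched for GGAATG on both strands, that is for GGAATG and CATTCC, which cannot overlap each other. The 250 bases before the start of CCN2 (chr6:131951373-131951622, minus strand) and ANKRD1 (chr10:90921088-90921337, minus strand) follow, read in the direction of the gene, with the core in capitals.
CCN2: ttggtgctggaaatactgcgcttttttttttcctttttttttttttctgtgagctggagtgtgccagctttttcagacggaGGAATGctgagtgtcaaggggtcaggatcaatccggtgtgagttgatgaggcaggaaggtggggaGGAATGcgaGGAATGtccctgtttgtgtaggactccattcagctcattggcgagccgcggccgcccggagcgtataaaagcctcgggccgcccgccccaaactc
ANKRD1: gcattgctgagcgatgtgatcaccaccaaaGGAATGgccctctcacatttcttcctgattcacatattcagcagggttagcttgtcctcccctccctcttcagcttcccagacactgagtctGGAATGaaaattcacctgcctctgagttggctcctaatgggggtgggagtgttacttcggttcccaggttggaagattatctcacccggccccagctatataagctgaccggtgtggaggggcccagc
CCN2 held the core 3 times, with first bases at positions -169, -104 and -95 from the start, and ANKRD1 held it 2 times, at -220 and -128. Of all 35116 windows, 14.0% held at least 1 core, 1.37% at least 2 and 0.128% at least 3.

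A single core was found in 6 more members, shown here with 10 bases on each side, read along the gene, so that CATTCC marks a core on the opposite strand.
YAP1: ggagtgtgcaGGAATGtagcaacttg
AJUBA: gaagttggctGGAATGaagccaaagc
LATS2: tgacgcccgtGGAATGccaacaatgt
AMOTL2: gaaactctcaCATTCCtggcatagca
PTPN14: tcccgggccgCATTCCtccccgcccc
AXL: gactttgcacCATTCCactccctccg
They lie at chr11:102110275-102110300 (plus strand), chr14:22976886-22976911 (minus), chr13:21061562-21061587 (minus), chr3:134374501-134374526 (minus), chr1:214551787-214551812 (minus) and chr19:41226533-41226558 (plus) of GRCh38.p14. In all, 8 of the 26 matched members (30.8%) held a core in some window, beside 15.1% of the 11484 tested genes with a window. By group these were 3 of 7 targets and 5 of 19 pathway genes. FSTL1, the target with the largest fold change, was among the 18 matched members without a core in these windows. Sequence outside the windows, distal sites included, was not searched. Across all tested genes, 22.3% of the 1739 with at least 1 core passed and were higher and 21.3% were lower, close to the 20.3% higher and 22.5% lower of the 9745 without a core. Of the 153 with at least 2 cores, 28.1% were higher and 17.6% lower. A match of letters is a description and not a bound site, and these shares were not tested.

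**Figure D4:**
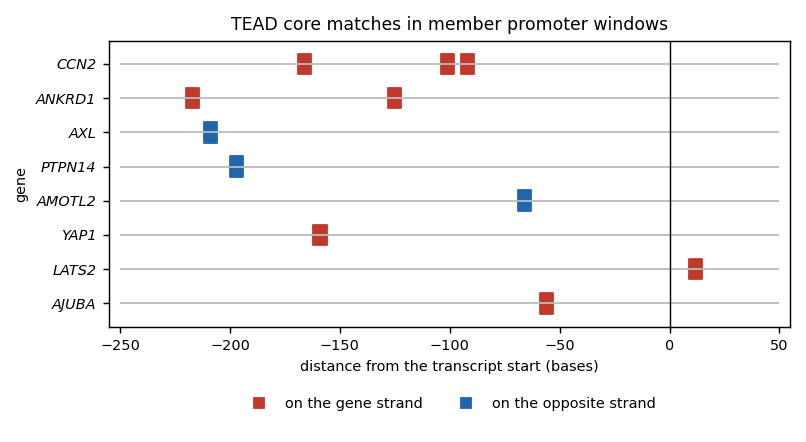
Position of the TEAD core in the promoter windows of the 8 members that hold it, as distance in bases from the transcript start (x axis) for each gene (y axis). Red boxes are cores on the gene's own strand and blue boxes cores on the opposite strand, grey lines are the windows from 250 bases before to 50 after the start, and only the window that holds a core is drawn; CCN2 has 3 and ANKRD1 has 2, and LATS2 has its core just past the start.

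Members were compared with ALKBH5 in the order of their oeALKBH5 libraries. Replicate 1 had the most ALKBH5 mRNA and replicate 3 the least of the 3. In 9 of the 13 targets, and in 7 of the 8 that rose, the CPM of the oeALKBH5 libraries followed that same order, as they did in 9 of the 23 pathway genes. Of all genes tested 22.1% followed it, and of all genes that passed higher 36.3%. So did 26 of 47 other Hippo regulators and 7 of 12 other YAP/TEAD targets from the further lists described below. Among the targets that rose, TNFRSF12A was the exception. With library size alone it was again 9 of 13 targets, 10 of 23 pathway genes and 24.2% of all genes. Replicate 1 also stood apart from the other oeALKBH5 libraries on the second principal component of all genes (18.2 against -6.29 and -15.0). With 3 libraries, the ALKBH5 level cannot be told apart from any other property of replicate 1. Without replicate 1 the median log2 fold change was 0.39 in the targets and 0.10 in the pathway genes. In that fit 9 of 13 targets and 9 of 23 pathway genes rose. Over all genes the median there was 0.0074, and 6045 genes passed in either direction.

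**Figure D5:**
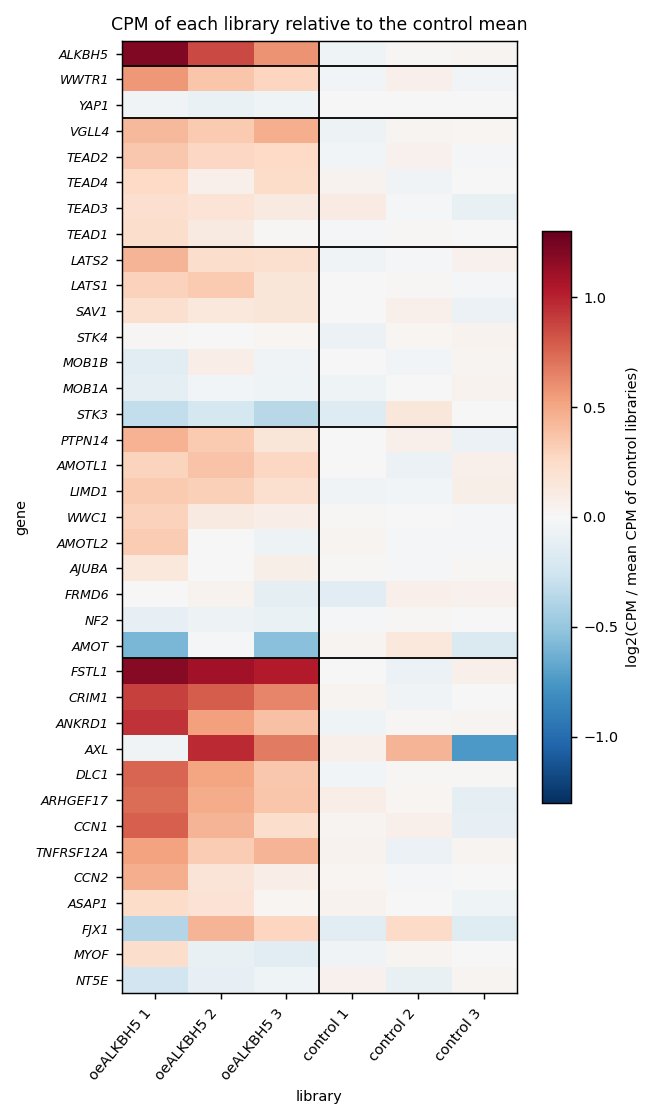
Log2 ratio of each library's CPM to the mean CPM of the 3 controls (colour scale) for ALKBH5 and the 36 members (y axis, grouped by role and ordered by fold change) in oeALKBH5 and control libraries (x axis). Red is above and blue below the control mean; in ANKRD1, CCN1, CCN2 and DLC1 the red fades across the oeALKBH5 libraries as it does for ALKBH5, while FSTL1 stays dark in all 3.

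Genes of the pathway outside the 36 were read from a pair of further lists. Of 12 tested YAP/TEAD targets among the 14 listed, 9 rose and 1 fell, with a median log2 fold change of 0.44. That is 75.0% higher and 8.33% lower, beside 20.8% and 22.0% of all genes tested. The list was chosen with earlier results of these data known, so the shares are a description. THBS1, a thrombospondin, was at 35.7, 29.3 and 25.9 CPM in oeALKBH5 and 14.9, 12.8 and 14.5 CPM in controls (log2 fold change 1.11, SE 0.110). The growth factor binding protein gene IGFBP3 was at 1.10 (SE 0.0667) and TGFB2, a transforming growth factor beta, at 0.99 (SE 0.0695). In these 3 genes every oeALKBH5 library exceeded every control. NUAK2, a kinase of the AMPK family, fell (log2 fold change -0.23, SE 0.0698), and did not pass without control replicate 1 (-0.19) or 2 (-0.21) or with library size alone (-0.15). Several of these genes are also targets of other pathways. FOXF2 and RBMS3 did not pass the filter on low counts.

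Of 47 tested regulators among the 49 listed, 11 rose and 8 fell, with a median of 0.070. These shares, 23.4% higher and 17.0% lower, were near the 20.8% and 22.0% of all genes tested. The count that rose was 5 without control replicate 3, 7 without control replicate 2 and 23 with library size alone. Those with the largest rises were FAT4, at 8.32, 6.33 and 6.05 CPM in oeALKBH5 and 3.17, 4.01 and 4.46 CPM in controls (log2 fold change 0.83, SE 0.154), the LIM protein WTIP (log2 fold change 0.63, SE 0.0813), FAT1 (log2 fold change 0.61, SE 0.0756) and WWC2 (log2 fold change 0.37, SE 0.0642). FAT4 and FAT1 are giant cadherins related to fly Fat, and WWC2 is a relative of WWC1. The largest falls were those of CRB3, at 10.6, 11.1 and 12.2 CPM in oeALKBH5 and 22.1, 17.3 and 18.3 CPM in controls (log2 fold change -0.77, SE 0.0969), TNIK (log2 fold change -0.37, SE 0.0528) and TAOK3 (log2 fold change -0.34, SE 0.0657). CRB3 is an apical polarity protein, and TNIK and TAOK3 are STE20 family kinases. VGLL1 was not analysed here, and VGLL2 did not pass the filter.

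Members were longer than most transcripts, and over all genes fold changes increased weakly with length. The median effective length, as implied by the ratio of counts to FPKM, was 5103 bases in targets and 4994 bases in pathway genes, against 2953 bases over all genes tested. Of the members with a length, 16 were among the longest 2362 genes, those of at least 5058 bases. Across 11810 genes, which are not independent replicates, log2 fold change and effective length had a Spearman rank correlation of 0.277, and 35.9% of those 2362 longest genes passed higher. The part of length in the members' values was not tested.

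On the authors' FPKM values, tested on log2(FPKM + 1) with limma, 9 of 11 targets and 13 of 22 pathway genes passed higher and 1 pathway gene, STK3, lower. Over all 12016 genes tested there 29.2% passed higher and 15.2% lower (44.3% in all), so that scale is tilted towards higher calls. It rests on the same libraries and is no separate evidence. CCN2, TEAD1 and SAV1 passed on this scale and not by edgeR, while AMOT, AXL and FJX1 lay under its filter of 1 FPKM in 3 libraries.

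Transcript shares differed between groups about as often in members as in all genes. The estimates divide reads among RefSeq transcripts by a model, and shares of FPKM varied widely between replicates. Of 53 member transcripts with at least 15% of their gene's FPKM, 7 had shares that did not overlap between groups, or 13.2%, beside 12.8% over all genes. These were transcripts of DLC1, AJUBA, CRIM1, NT5E and TEAD2 and a pair of FRMD6. The leading transcript differed between groups in DLC1, FRMD6, CRIM1 and ASAP1. In DLC1 the transcript NM_006094.5 held 60.7, 52.8 and 51.9 percent in oeALKBH5 libraries and 24.5, 44.2 and 35.1 percent in controls, where NM_001316668.2 led on average. In FRMD6, at 3.02 ± 0.361 FPKM in oeALKBH5 and 2.91 ± 0.0854 FPKM in control, NM_001267046.2 was estimated at 0 in all oeALKBH5 libraries and at 36.5, 40.8 and 25.8 percent in controls. In ASAP1 the leading transcript was XM_011517052.2 in oeALKBH5 and NM_018482.4 in control, but the first ranged from 12.9% to 41.6% within oeALKBH5, so the switch is within replicate spread. In CRIM1 the leaders XM_005264357.5 and XM_017004262.1 held close shares in both groups.

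Both coactivators had the same leading transcript in both groups. Of the 13 YAP1 transcripts the leading one, NM_001130145.3, held 34.7% ± 5.71 in oeALKBH5 and 28.4% ± 6.58 in control (SD, n = 3 each), and NM_001195044.2 held 19.2% ± 9.58 in oeALKBH5 and 15.5% ± 5.60 in control. WWTR1 was mostly NM_015472.6, at 90.7% ± 5.02 in oeALKBH5 and 87.8% ± 11.9 in control. TEAD2 divided between NM_003598.2, at 36.9% ± 2.88 in oeALKBH5 and 41.2% ± 1.28 in control, and NM_001256662.2, at 36.5% ± 1.91 in oeALKBH5 and 33.0% ± 1.92 in control. In AJUBA the leading transcript NM_032876.6 held 60.7% ± 2.47 in oeALKBH5 and 53.1% ± 4.69 in control, and its shares overlapped. The AJUBA transcript without overlap was NM_198086.3, at 33.2, 37.0 and 35.2 percent in oeALKBH5 libraries and 38.2, 44.3 and 47.6 percent in controls. In FSTL1 the shares of the transcripts stayed close while the gene rose: XM_024453327.1 held 72.8% ± 3.87 in oeALKBH5 and 73.3% ± 3.91 in control. LIMD1 was led by NM_014240.3 and ARHGEF17 by NM_014786.4, with 83.1% ± 1.16 in oeALKBH5 and 83.3% ± 0.330 in control for LIMD1 and 70.2% ± 5.74 in oeALKBH5 and 70.5% ± 1.32 in control for ARHGEF17. In TEAD4 (led by NM_003213.4), STK4 (NM_006282.5), LATS1 (NM_004690.4), MOB1B (XM_011532412.2), WWC1 (XM_005265850.1), AMOT (XM_005262087.1), AMOTL1 (NM_130847.3), AMOTL2 (XM_017006580.1) and AXL (NM_001699.6) the shares of the leading transcript overlapped between groups.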

How the data were processed

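The submitters' processing notes list the aligners HISAT2 2.1.0 and Bowtie2 2.2.5, the quantifier RSEM 1.2.8 and genome GRCh38.p13, without saying how each was applied. Strandedness and read filters were not stated in the labels. The deposited tables hold estimated counts of each RefSeq transcript, unscaled between libraries, and FPKM values computed by the authors for the same 80668 transcripts. Both were summed to genes by Entrez identifier, with symbols matched for 17881 of 18030 genes, and summed estimated counts were rounded to whole numbers.

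The test was edgeR 4.0.16 (R 4.3.3): TMM scaling, expression filter at a minimum count of 10, a robust quasi-likelihood model of group alone, two-sided, Benjamini-Hochberg adjustment over all genes, passing at an adjusted p under 0.05. A standard error is the size of the log2 fold change divided by the root of its F statistic. FPKM was tested as log2(FPKM + 1) with limma 3.58.1 for genes of at least 1 FPKM in 3 libraries, a scale that understates changes of low genes. DESeq2 1.42.0, limma-voom, other scalings and filters, a replicate block and leaving out each library were alternatives. The scripts were tested on simulated data, and figures drawn with matplotlib 3.10.9.

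The members, lists and naming rule were chosen with earlier results of these data known. Values in every library are given for members that pass and for coactivators and TEAD genes, and up to 4 passing genes a direction are named from each of the 2 other lists, of which some are not reported here. Transcripts are named where 2 or more hold at least 15% of a member, where the leading one differs between groups, and for both coactivators. Members outside this rule with library values were chosen after their values were seen. No 2 libraries of the same group agreed within counting noise (chi-square per degree of freedom at least 1.66), so all 6 were kept.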

Additional observations from a re-analysis of the deposited data

How the results depend on the processing

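The count of passing genes over all genes was 6062, and from 4878 to 6353 with 1 library left out; it was within 1.5 times of that under every alternative, as was the FPKM count of 5328 (3930 to 5297 with 1 library left out). With library size alone 23 members rose and 1 fell, in place of 19 and 1. With 1 library left out, pathway genes that rose numbered 8 to 11 and that fell 0 to 1, targets that rose 5 to 9 and that fell 0 to 1, other regulators that rose 5 to 14 and that fell 7 to 11, and other targets that rose 8 to 9 and that fell 0 to 1. With library size alone 23 other regulators rose and 0 other targets fell. Of the 20 members that passed, 13 passed under every alternative and 7 did not: TEAD3, TEAD4, STK3, WWC1, CCN1, ANKRD1 and ASAP1, all with the same sign throughout. Of the 16 that did not pass, 6 passed under some alternative. The sign changed in 8 members that had not passed. With library size alone YAP1 was at 0.016, MOB1A at 0.00995, MOB1B at 0.054 and FRMD6 at 0.056. With 1 library left out, STK4 lay between -0.022 and 0.034, MOB1B between -0.084 and 0.027, FRMD6 between -0.088 and 0.021, AMOTL2 between -0.029 and 0.17, FJX1 between -0.0087 and 0.36, and MYOF between -0.12 and 0.078. MYOF was also at -0.00043 with no filter and -0.0034 by limma-voom. The cause of these changes was not tested. Genes under a mean count of 50 (AMOT and FJX1 among the members) gave no value under that filter.

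The replicate numbers did not pair the libraries: same-numbered libraries correlated at -0.019, 0.016 and -0.012 in their deviations from group means, and all 3 oeALKBH5 libraries correlated more with a control of another number than with their own. With the replicate number as a block 6469 genes passed, 11 pathway genes and 10 targets rose, CCN2 (0.24) and AXL (0.59) passed, and ALKBH5 (0.89) did not; on FPKM 5442 genes passed. AMOT, AXL and FJX1 had the fewest counts of the members and the widest standard errors; the part of depth was not tested.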
